A study of Tetranychus urticae with 24 samples.

Results

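The comparison described here set adult females of the spider mite Tetranychus urticae treated with DEF directly against females treated with DEM. It was made by the library labels alone, 4 libraries a side, so 8 of the 24 libraries of the study carry it. DEF (S,S,S-tributyl phosphorotrithioate) was sprayed at 500 ppm and DEM (diethyl maleate) at 2000 ppm, so the compound and its dose cannot be told apart. Both were dissolved in the same formulation, N,N-dimethylformamide with emulsifier W diluted in water. The mites were of the JP-R strain, which is resistant to the acaricides cyenopyrafen and cyflumetofen and had been kept on cyenopyrafen-sprayed bean until 1 week before collection. The females were 3 to 5 days old when placed on leaf discs, and those alive 24 h after the spray were pooled for whole-body RNA. The other groups, also of 4 libraries each, serve as reference points here. These were unsprayed mites (CON), mites sprayed with formulation only (FORM), and mites sprayed with PBO (piperonyl butoxide, 1000 ppm) or CsA (cyclosporin A, 50 ppm). The design text calls the 4 libraries of a treatment biological replicates. The strain is a single resistant line, and only survivors were sampled.

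Both compounds are used as synergists, agents that block an enzyme system which breaks down pesticides. DEF is an organophosphorus ester that binds the active site of carboxyl/choline esterases (CCEs), which split ester bonds in many pesticides. DEM reacts with glutathione, the small thiol that glutathione S-transferases (GSTs) attach to electrophilic toxicants, and so withdraws their cosubstrate. Cytochrome P450 monooxygenases (P450s) oxidize such compounds, UDP-glycosyltransferases (UGTs) add a sugar to them, and transporters of the ABC and major facilitator (MFS) families move them or their products across membranes. Neither esterase activity nor glutathione was measured in these libraries, so the labels rest on the compounds sprayed and no transcript serves as their check.

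Values are counts scaled to a common library size (CPM, with library sizes adjusted by the TMM method), and they are not divided by gene length, so levels are compared between libraries and not between genes. FC is the fold change of DEF over DEM, and a positive log2 FC means a higher level with DEF. To be called, a gene had to differ by 1.5-fold or more with an adjusted p below 0.05 in edgeR's quasi-likelihood test with Benjamini-Hochberg adjustment over all 12736 genes tested. The deposited table held 19087 genes, of which 1831 had no read in any library. The libraries held 13824851 to 16696100 counts with DEF and 14962473 to 18198286 with DEM. DEM replicate 1 stood apart from the other DEM libraries. The chi-square per degree of freedom between its counts and theirs was 45.0 to 51.1, where sampling noise alone gives about 1, against 3.47 to 5.87 among the other 3 DEM libraries and 5.55 to 11.3 among the DEF libraries. Its most abundant gene, tetur39g00810, took 7.69% of its counts, against 5.00 to 5.32% in the other DEM libraries and 4.57 to 4.78% with DEF. The value without it is given for each named gene in which Dixon's test, described further below, singled it out. It is also given for some other named genes. In the remaining named genes the log2 FC may depend on this library as well.

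Between DEF and DEM 1012 genes were called, 7.95% of those tested. With DEF 334 genes were higher (2.62% of those tested) and with DEM 678 were higher (5.32%). An FC of at least 2 was reached by 132 of the DEF-higher and 224 of the DEM-higher genes, and an FC of at least 4 by 22 and 12. The genes called were lowly counted, with a median of their mean CPM, which also depends on gene length, of 6.39 for those higher with DEF and 3.57 for those higher with DEM, against 23.2 over all genes tested. All 4 DEF libraries lay above all 4 DEM libraries in 1475 genes (11.6% of those tested), and the reverse held in 1978 genes (15.5%). Of the 1012 genes called, 880 had groups that did not overlap in this way. Without DEM replicate 1 the DEF-higher genes numbered 480 and the DEM-higher genes 601.

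**Figure D1:**
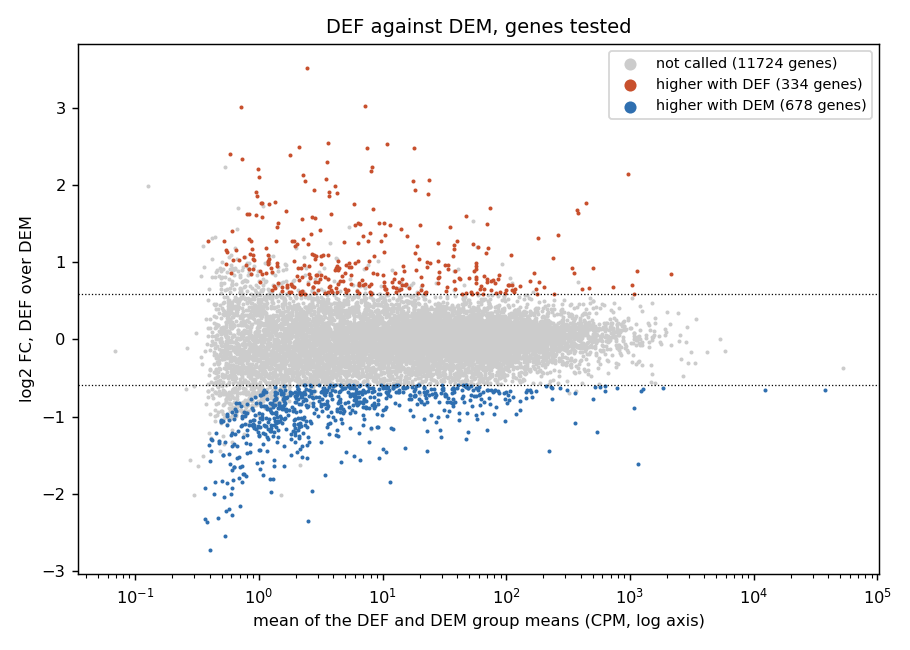
Log2 FC of DEF over DEM (vertical axis) against the mean of the group means in CPM (horizontal, log axis) for the 12736 genes tested, with dotted lines at an FC of 1.5. The 334 genes higher with DEF (orange) and the 678 higher with DEM (blue) reach down to levels below 1 CPM, and the median log2 FC of all genes is 0.0031.

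Each compound set against FORM gave fewer calls than the pair set against each other. DEF differed from FORM in 335 genes (2.63% of those tested), 184 of them higher and 151 lower with DEF. DEM differed from FORM in 277 genes (2.17%), 212 higher and 65 lower with DEM. These comparisons share the FORM libraries, so only the position of FORM is described. In 285 of the 334 DEF-higher genes (85.3%) the FORM mean lay between the DEF and DEM means, and in 609 of the 678 DEM-higher genes (89.8%) it did so, against 45.6% of all genes tested. Calling genes by a gap between the pair itself favours a reference between them. The share over all genes is therefore no fair measure, and no conclusion is drawn from the contrast. DEF was the farther of the pair from FORM in 68.0% of the DEF-higher and 42.3% of the DEM-higher genes, against 47.1% of all genes tested. Set against CON in place of FORM these shares were 63.2%, 49.1% and 49.5%. Unsprayed CON mites lay between the pair in 70.4% of the DEF-higher and 90.0% of the DEM-higher genes.

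The members of the detoxification families lay mostly on the DEF side. The lists used here hold genes from the study's tables of genes that responded to at least 1 of the 4 synergists, found by words in their descriptions. Many members were therefore picked on the DEF or DEM libraries themselves, and their counts are no independent evidence of a direction. Members listed only for PBO or CsA were picked on other treated libraries, and their counts are given apart where a list holds any. Such members were also not listed for DEF or DEM, so their choice was not free of these libraries either. Of the genes in these tables or named in the study's text, 372 were tested, of which 117 were higher with DEF and 144 higher with DEM. Of the 111 listed for PBO or CsA alone, 19 were higher with DEF (17.1%) and 32 higher with DEM (28.8%). Among genes outside them, 217 were higher with DEF and 534 higher with DEM, 6.07% of the 12364 tested.

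**Figure D2:**
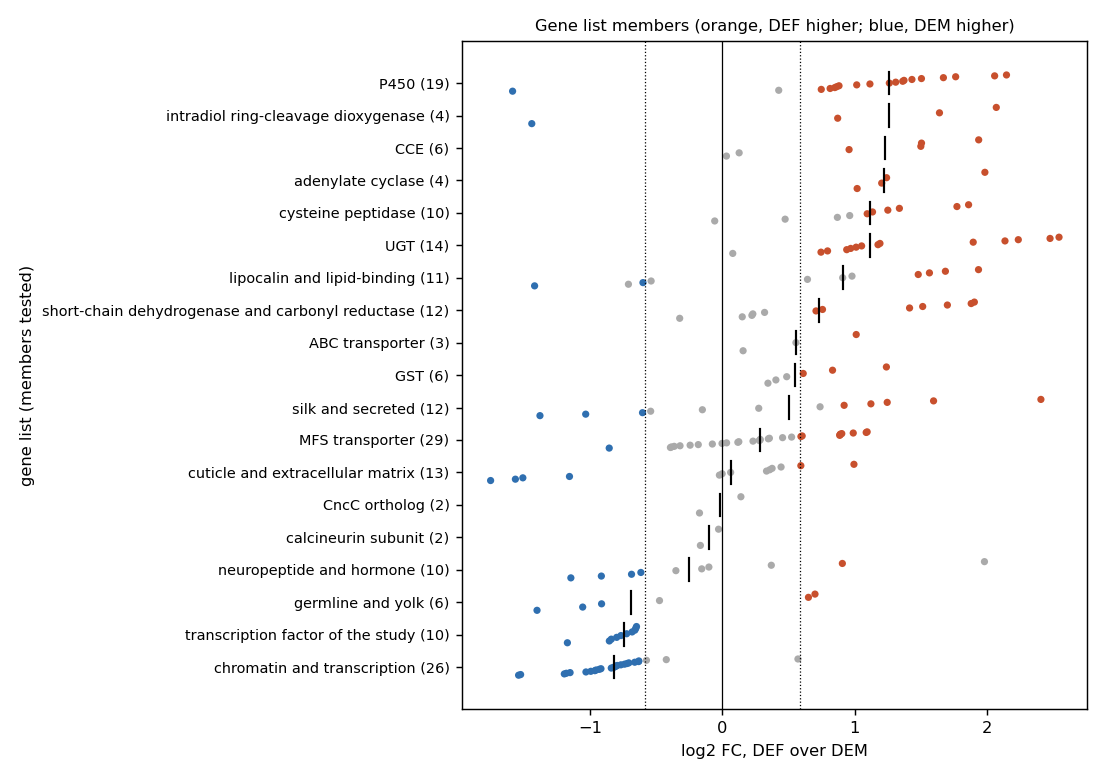
Log2 FC of DEF over DEM (horizontal axis) for each tested member of the gene lists (vertical axis, number of members in brackets). Points are genes, coloured orange when called higher with DEF, blue when called higher with DEM and grey when not called, black bars are list medians and dotted lines mark an FC of 1.5. The P450 median is 1.26 and the chromatin and transcription median is -0.82.

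P450s, which insert oxygen into lipophilic compounds, were higher with DEF in 17 of 19 listed members, and their median log2 FC was 1.26 against 0.0031 over all genes tested. All 4 members listed for PBO alone were among the 17. CYP392A11 (tetur03g00970), an enzyme shown to metabolize cyenopyrafen, read 1675, 1596, 1543 and 1467 CPM in the 4 DEF libraries. With DEM it read 357, 319, 355 and 385 CPM, and with FORM 388 to 547 CPM. Every DEF library lay well above every DEM and FORM library, a difference of 4.44-fold from DEM (log2 FC 2.15, SE 0.12, edgeR adjusted p = 5.53e-12). Against FORM, CYP392A11 was higher with DEF (log2 FC 1.77, edgeR adjusted p = 3.36e-10), and with DEM its log2 FC was -0.38, short of the FC threshold. CYP392A12 (tetur03g00830), its neighbour in name and scaffold, read 658, 565, 506 and 555 CPM with DEF and 201, 167, 162 and 186 CPM with DEM (log2 FC 1.67, SE 0.12, edgeR adjusted p = 1.67e-09). For CYP392D2 (tetur03g04990) the DEF libraries held 744, 677, 672 and 624 CPM and the DEM libraries 183, 186, 209 and 222 CPM (log2 FC 1.76, SE 0.12, edgeR adjusted p = 4.17e-10). In both genes the groups did not overlap, and the FORM libraries, at 221 to 279.8 and 262 to 351 CPM, lay between them.

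Smaller differences were found for other CYP392 genes. CYP392E8 (tetur27g00350) read 3051, 2765, 2570.4 and 2729 CPM with DEF and 1624, 1422, 1540.4 and 1579 CPM with DEM (log2 FC 0.85, SE 0.09, edgeR adjusted p = 3.47e-07). CYP392A16 (tetur06g04520), shown to metabolize abamectin, read 1623, 1453, 1307 and 1543 CPM with DEF and 915, 712, 767 and 822 CPM with DEM (log2 FC 0.88, SE 0.11, edgeR adjusted p = 3.14e-06). Neither was called against FORM on the DEF side (log2 FC 0.40 and 0.39) or on the DEM side (-0.45 and -0.49), so the direct contrast joined 2 shifts of opposite sign that each stayed under the FC threshold. CYP392E6 (tetur27g00330), a neighbour of CYP392E8, showed the same order, at 212 to 261 CPM with DEF, 174 to 188 CPM with FORM and 129 to 143 CPM with DEM (log2 FC 0.75, SE 0.09, edgeR adjusted p = 5.06e-06). CYP392A16, CYP392E8, CYP392E6 and a probable pseudogene beside the CYP392A genes (tetur03g00800, log2 FC 1.36) are the 4 members listed for PBO alone.

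A run of 4 neighbouring P450 genes on scaffold 3 was higher with DEF throughout. It holds CYP392D6 (tetur03g05030), at 328, 245, 231 and 229 CPM with DEF and 113, 97.5, 96.7 and 109.6 CPM with DEM (log2 FC 1.31, SE 0.17, edgeR adjusted p = 1.70e-05). Its other members are annotated as broken copies. The probable pseudogene CYP392D5p (tetur03g05020) had a log2 FC of 2.06, a fragment (tetur03g05040) 0.86 and a further probable pseudogene (tetur03g05060) 1.26. Without DEM replicate 1 the last of these had 1.73. Reads of such near copies can be placed on each other, so the separate values of these genes are uncertain.

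The CYP385C genes of scaffolds 11 and 46 carry paired names, and their reads are likewise hard to separate. CYP385C4v2 (tetur46g00150) stood at 20.2 to 21.6 CPM with DEF and 7.18 to 7.91 CPM with DEM, with FORM at 11.4 to 16.3 CPM (log2 FC 1.43, SE 0.20, edgeR adjusted p = 2.49e-05). CYP385C3v2 (tetur46g00170), CYP385C4 (tetur11g05520) and CYP385C3 (tetur11g05540) had log2 FC of 1.51, 1.37 and 1.02. In the contrast of PBO with CsA, described at the end, the log2 FC of these 4 genes was -0.06, -0.43, -0.29 and -0.38, against 2.10 for CYP392A11 (tetur03g00970). The remaining P450s higher with DEF were a gene known only by its P450 conserved site (tetur03g09941, log2 FC 1.12) and CYP392B3 (tetur20g00290, log2 FC 0.81). For CYP392B3 the DEF libraries, at 32.4 to 38.9 CPM, overlapped with FORM at 29.6 to 42.2 CPM, and the DEM libraries lay below both at 18.4 to 23.4 CPM.

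The P450 list had 1 member on the DEM side, a probable pseudogene (tetur21g00560) with 1.43, 1.55, 3.53 and 2.75 CPM with DEF and 5.82, 6.59, 8.23 and 6.86 CPM with DEM (log2 FC -1.59, SE 0.36, edgeR adjusted p = 0.00265). CYP392A3 (tetur07g06460) was not called, with means of 2.00 ± 0.371 CPM with DEF and 1.47 ± 0.199 CPM with DEM (SD, n = 4). The 95% interval of its log2 FC ran from -0.05 to 0.90, which leaves room for a FC over 1.5. The count of 17 higher and 1 lower was the same without any of the 8 libraries. Tested against an FC of 1.5, as described further below, 10 members were higher with DEF and 0 with DEM.

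UGTs were higher with DEF in 13 of 14 listed members, with a median log2 FC of 1.12, and none was higher with DEM. All 14 had been listed for DEF or DEM. The genes with the largest differences sit next to each other on scaffold 22. UGT63 (tetur22g00360) read 13.8, 13.1, 11.8 and 12.6 CPM with DEF and 2.48, 2.04, 2.89 and 1.74 CPM with DEM, with FORM between at 4.04 to 6.14 CPM (log2 FC 2.48, SE 0.17, edgeR adjusted p = 3.99e-10). UGT68 (tetur22g00480) read 5.78, 6.41, 7.12 and 5.5 CPM with DEF and 1.24, 1.12, 0.763 and 1.12 CPM with DEM (log2 FC 2.55, SE 0.19, edgeR adjusted p = 1.06e-09). DEF exceeded DEM by 5.57-fold in UGT63 and 5.84-fold in UGT68. Against FORM both were higher with DEF (log2 FC 1.36 and 1.58, edgeR adjusted p = 2.20e-06 and 1.73e-06) and lower with DEM (-1.12 and -0.96, edgeR adjusted p = 0.00131 and 0.0105).

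The scaffold 22 run comprised 6 consecutive tested genes, all higher with DEF. Between UGT63 and UGT65 lies tetur22g00380, which has no description in the sources used here and had the highest log2 FC of all named genes. It read 4.65, 3.91, 5.29 and 4.37 CPM with DEF and 0.392, 0.461, 0.545 and 0.169 CPM with DEM (log2 FC 3.52, SE 0.40, edgeR adjusted p = 1.73e-06), and FORM spread widely from 0.750 to 3.85 CPM. UGT65 (tetur22g00420), UGT66 (tetur22g00440) and UGT67 (tetur22g00460) had log2 FC of 2.24, 0.94 and 1.90, and UGT69 (tetur22g00510), just beyond the run, 2.14. UGT66 was the most weakly separated of these, at 25.7 to 37.1 CPM with DEF and 14.0 to 19.7 CPM with DEM, where DEM replicate 1 was the highest DEM library (log2 FC 1.08 without it).

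Of the UGTs elsewhere in the genome, UGT18 (tetur04g07770) and UGT09 (tetur02g03300) had log2 FC of 1.19 and 1.18, UGT11 (tetur02g09850) 1.05, UGT16 (tetur04g07630) 1.01 and UGT10 (tetur02g09830) 0.97. UGT31 (tetur05g05710) and a gene described as similar to UGT 2B10 (tetur184g00040) had 0.80 and 0.75. Without DEM replicate 1, which was high for UGT18 and UGT11, these had 1.32 and 1.22. UGT09 was the most even among them, with 51.8 to 53.2 CPM over the DEF and 21.7 to 25 CPM over the DEM libraries. UGT16 differed from FORM on the DEM side (log2 FC -0.97) and not on the DEF side (0.04), while UGT11 showed the reverse (-0.16 and 0.89). UGT52 (tetur11g01830) was not called between the pair, at 184 ± 27.8 CPM with DEF and 174 ± 17.6 CPM with DEM (SD, n = 4), a log2 FC with a 95% interval of -0.23 to 0.39. It had risen with both compounds, from 99.6 ± 12.9 CPM with FORM, by log2 FC of 0.88 (edgeR adjusted p = 7.92e-04) and 0.81 (edgeR adjusted p = 0.00607).

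**Figure D3:**
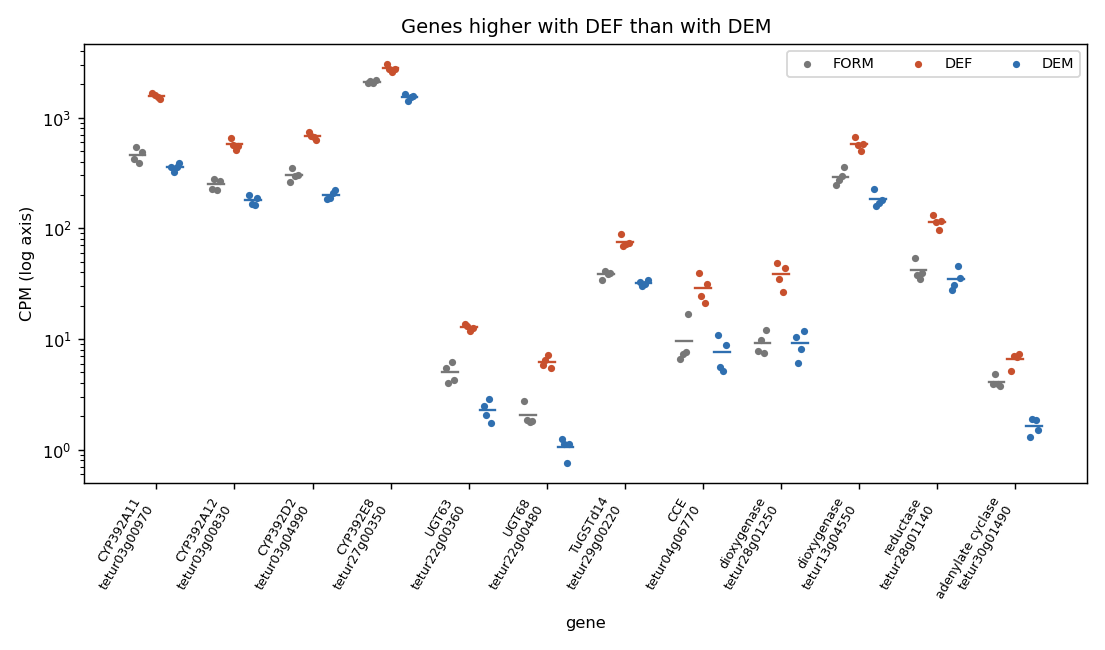
Level in CPM (vertical log axis) of 12 genes higher with DEF, in each FORM (grey), DEF (orange) and DEM (blue) library. Points are libraries and bars the mean of 4. CYP392A11 stands at 1467 to 1675 CPM with DEF and 319 to 385 CPM with DEM, and no gene shown has overlapping DEF and DEM libraries.

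CCEs are the enzymes that DEF inhibits. Of 6 listed members 4 were higher with DEF and none with DEM, with a median log2 FC of 1.23. Of the 2 listed for PBO or CsA alone 1 was higher with DEF, the gene tetur11g05770 described last among those called. The CCE tetur04g06770 read 39.4, 24.6, 20.9 and 31.3 CPM with DEF, 10.9, 5.60, 5.13 and 8.83 CPM with DEM and 6.61, 7.39, 7.57 and 17 CPM with FORM (log2 FC 1.94, SE 0.38, edgeR adjusted p = 0.00108). The neighbours tetur01g10800 and tetur01g10810 had log2 FC of 1.51 and 1.5, with DEF libraries at 1.41 to 3.10 and 7.15 to 12.1 CPM and DEM libraries at 0.450 to 1.18 and 2.90 to 3.99 CPM. The third gene of that row, tetur01g10820, was not called (log2 FC 0.03, 95% interval -0.24 to 0.30). The fourth CCE called, tetur11g05770, read 26.4, 14.8, 13.2 and 22.6 CPM with DEF and 17.4, 6.92, 7.52 and 8.15 CPM with DEM, so its groups overlapped through DEM replicate 1 (log2 FC 0.96, SE 0.34, edgeR adjusted p = 0.0428). Its call was lost without DEF replicate 1 or 4 or DEM replicate 2, 3 or 4 (edgeR adjusted p = 0.0940 to 0.146), and without DEM replicate 1 its log2 FC was 1.37. The CCE tetur04g06670 was not called, at 89.5 to 105 CPM with DEF and 78.5 to 94.9 CPM with DEM (log2 FC 0.13, 95% interval -0.04 to 0.30). The study's text gives this ID to the esterase TuCCE25, whereas its tables hold the similar ID tetur04g06770 and not this one. The text reports TuCCE25 as higher after DEF. Of the pair, tetur04g06770 showed that response here, with a log2 FC of DEF over FORM of 1.61, against -0.07 for tetur04g06670. No sequence was at hand to check the name itself.

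GSTs use the thiol that DEM withdraws. All 6 listed members had a positive log2 FC, from 0.34 to 1.24 with a median of 0.55, and 3 were called higher with DEF. TuGSTd14 (tetur29g00220), a delta class GST, read 88.9, 68.8, 72.2 and 73.0 CPM with DEF and 32.6, 30.2, 31.4 and 34.1 CPM with DEM (log2 FC 1.24, SE 0.13, edgeR adjusted p = 1.22e-06). FORM, at 33.9 to 40.9 CPM, lay below DEF and overlapped slightly with DEM. The delta class gene tetur01g02500 read 114, 107, 127 and 98.2 CPM with DEF and 58.8, 64.3, 69.8 and 57.4 CPM with DEM (log2 FC 0.83, SE 0.09, edgeR adjusted p = 8.82e-07). The mu class gene tetur05g05190 read 103 to 110.0 CPM with DEF and 64.8 to 74.9 CPM with DEM, and FORM, at 98.0 to 110.3 CPM, overlapped with DEF and lay above DEM (log2 FC 0.61, SE 0.12, edgeR adjusted p = 0.00106). The other 3 delta class genes fell short of the FC threshold, tetur26g01450 with log2 FC 0.49, tetur26g01490 with 0.40 and tetur01g02480 with 0.34. Of the 5 members listed for PBO or CsA alone, tetur01g02500 and tetur05g05190 were the 2 called.

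Copper/zinc superoxide dismutase (tetur02g11180), which removes superoxide, lay on the DEM side, at 1.49-fold just short of the FC threshold. It gained a call with a minimum of 10 counts in every library, and without DEF replicate 2, DEF replicate 3 or DEM replicate 3. It read 165, 195, 184 and 171 CPM with DEF, 262, 263, 255 and 288 CPM with DEM and 277, 259, 276 and 284 CPM with FORM. Every DEF library stood below every DEM and FORM library (log2 FC -0.58, SE 0.07, edgeR adjusted p = 2.09e-06), and DEM overlapped with FORM. The PBO libraries, at 190 to 206 CPM, overlapped with DEF. The CncC orthologs, whose Drosophila counterpart activates detoxification genes, were not called. For tetur07g06850 the DEF libraries stood at 81.5 to 91.6 CPM and the DEM libraries at 73.8 to 87.9 CPM (log2 FC 0.14, 95% interval -0.0030 to 0.28), and for tetur07g04600 at 9.65 to 11.7 and 11.5 to 13.3 CPM (log2 FC -0.17, 95% interval -0.36 to 0.02). Both intervals lie within an FC of 1.5 in either direction. Calcineurin, a calcium-dependent phosphatase, had 2 of its 3 listed subunits tested, tetur04g07540 with log2 FC -0.03 and tetur03g06410 with -0.17, and neither was called. The other subunit, tetur04g07560, had at most 12 counts in a library.

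Intradiol ring-cleavage dioxygenases open the ring of catechols, and in mites they are secreted enzymes acquired by horizontal transfer. Of 4 listed members 3 were higher with DEF and 1 with DEM, and all 4 had been listed for DEF. The gene tetur28g01250 read 48.1, 35.1, 26.7 and 44.0 CPM with DEF, 10.5, 6.06, 8.18 and 11.8 CPM with DEM and 7.70, 9.81, 7.44 and 12.2 CPM with FORM (log2 FC 2.07, SE 0.32, edgeR adjusted p = 1.36e-04). The gene tetur13g04550 read 662, 566, 499.6 and 579 CPM with DEF and 228, 159.5, 169.8 and 181 CPM with DEM (log2 FC 1.64, SE 0.20, edgeR adjusted p = 1.08e-05). In the former DEM and FORM overlapped, and in the latter FORM, at 244 to 359 CPM, lay between. The weakest of the 3, tetur20g01790 (log2 FC 0.87), lost its call without DEM replicate 2 (edgeR adjusted p = 0.0513) or DEM replicate 3 (0.0507). The member on the other side, tetur12g04671, read 10.8, 13.4, 13.9 and 11.6 CPM with DEF and 39.6, 32.6, 30.4 and 32.3 CPM with DEM (log2 FC -1.44, SE 0.19, edgeR adjusted p = 1.07e-05).

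Short-chain dehydrogenases and carbonyl reductases, which reduce or oxidize carbonyl compounds, were higher with DEF in 7 of 12 listed members and with DEM in none (median log2 FC 0.73). Of 6 members listed for PBO or CsA alone 2 were among the 7. A run of 4 such genes on scaffold 6 was higher with DEF. In it tetur06g04970 read 45.7, 31.7, 35.6 and 35.3 CPM with DEF and 5.16, 7.38, 13.5 and 13.8 CPM with DEM (log2 FC 1.88, SE 0.29, edgeR adjusted p = 1.42e-04), while its FORM libraries spread from 14.9 to 33.7 CPM. Its neighbours tetur06g04940, tetur06g04960 and tetur06g04980 had log2 FC of 1.52, 1.91 and 1.42. On scaffold 28, tetur28g01140, described as a 3-oxoacyl-acyl-carrier-protein reductase, read 131, 113, 97.0 and 115 CPM with DEF and 27.7, 31.0, 45.5 and 35.8 CPM with DEM (log2 FC 1.70, SE 0.18, edgeR adjusted p = 2.30e-06). The aldo-keto reductases tetur02g11530 and tetur30g00660 had log2 FC of 0.76 and 0.71.

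Of the 3 listed ABC transporters of class C, a class that exports glutathione and glucuronide conjugates in other animals, 1 was called. This was tetur28g01950, at 44.1, 34.9, 31.3 and 38.7 CPM with DEF and 23.1, 16.3, 17.8 and 16.8 CPM with DEM (log2 FC 1.01, SE 0.14, edgeR adjusted p = 2.13e-05). The others were tetur14g02300 (log2 FC 0.56) and tetur14g02320 (0.16), and without DEF replicate 2 or DEM replicate 1 the count was 2. Of 29 MFS genes 9 were higher with DEF and 1 with DEM, with a median log2 FC of 0.28. Of all 372 genes tested from the study's tables or text, 117 were higher with DEF, so the 9 are a description. Of the 18 listed for PBO or CsA alone 4 were higher with DEF, where 17.1% of all genes so listed were. Several are annotated as sialins, anion carriers of the lysosome in mammals, and lie close together on scaffold 8. Of these tetur08g06370 read 3.51, 4.72, 4.72 and 4.94 CPM with DEF and 2.55, 1.51, 2.40 and 1.86 CPM with DEM, with FORM in the range of DEF at 3.62 to 4.82 CPM (log2 FC 1.10, SE 0.16, edgeR adjusted p = 4.13e-05). A gene described as vesicular glutamate transporter 1 (tetur05g04460) had a log2 FC of 1.09, and the sugar transporter tetur17g01290, the 1 member higher with DEM, -0.86. The gene described as similar to Drosophila CG18549 (tetur36g00190), which is not in these lists, read 13, 8.77, 20.2 and 9.17 CPM with DEF and 1.89, 1.38, 1.36 and 1.63 CPM with DEM (log2 FC 3.03, SE 0.45, edgeR adjusted p = 7.91e-05), and FORM, at 0.546 to 2.64 CPM, overlapped with DEM.

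The listed digestive and signalling enzymes lay mostly on the DEF side as well. Cysteine peptidases, the main gut proteases of this mite, were higher with DEF in 6 of 10 members and with DEM in none (median log2 FC 1.12), and neither of the 2 listed for PBO or CsA alone was called. The cathepsin B tetur28g01430 read 160.0, 139.5, 123 and 167 CPM with DEF and 69.0, 59.7, 71.1 and 76.4 CPM with DEM (log2 FC 1.10, SE 0.13, edgeR adjusted p = 5.98e-06). The peptidase tetur06g03520 had the highest log2 FC of the list, 1.86, with DEF at 3.81 to 7.12 CPM and DEM at 1.09 to 2.11 CPM. The next, the cathepsin B tetur01g05230 (log2 FC 1.77), was near 1 CPM and lost its call without DEF replicate 1 or 3 or DEM replicate 2, 3 or 4 (edgeR adjusted p = 0.0576 to 0.112), and without DEM replicate 1 its log2 FC was 2.45. All 4 listed genes described as adenylate cyclase, which makes the messenger cyclic AMP, were higher with DEF. All 4 had been listed for DEF or DEM, so their count is no independent evidence of a direction. Among them tetur30g01490 read 5.18, 6.95, 6.91 and 7.26 CPM with DEF, 1.31, 1.91, 1.85 and 1.52 CPM with DEM and 3.91, 4.79, 3.89 and 3.77 CPM with FORM (log2 FC 1.99, SE 0.28, edgeR adjusted p = 2.91e-05). For this gene the DEM libraries stood apart below the rest. In tetur11g05110, by contrast, DEM overlapped with FORM and DEF lay above both (log2 FC 1.24). The other pair, tetur11g05100 and tetur16g03200, had 1.21 and 1.02.

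Lists of mixed direction followed. Of all 372 genes tested from the study's tables or text, 117 were higher with DEF and 144 higher with DEM. The counts of these lists, and of the cuticle, germline and hormone lists below, are descriptions and not results about the families. Of 11 lipocalin and lipid-binding genes 4 were higher with DEF, among them the apolipoprotein D relative tetur06g03090 (log2 FC 1.69) and the lipoprotein tetur10g04150 (1.94, and 2.81 without DEM replicate 1), and 2 with DEM. Both of the latter have an immunoglobulin E-set domain, tetur14g01700 (log2 FC -1.42, and -1.09 without DEM replicate 1) and tetur14g02060 (-0.60). The last lost its call, by its FC, without DEF replicate 1 (-0.57), DEF replicate 4 (-0.58) or DEM replicate 3 (-0.58), and the DEM count of the list was 3 without DEF replicate 2 or DEM replicate 2. Of the 2 members listed for PBO or CsA alone, tetur14g02060 was the 1 called. Of 12 silk and secreted protein genes 5 were higher with DEF and 3 with DEM, and neither of the 2 listed for PBO or CsA alone was called. The largest differences were those of orphan gene tetur02g07960 (2.41, DEM at no more than 0.281 CPM) and the possible fibroin tetur13g00990 (1.60) on the DEF side and of the fibroin tetur04g08890 (-1.38) and secreted protein tetur02g03070 (-1.03) on the DEM side. For tetur13g00990 DEF, at 50.1 to 79.5 CPM, overlapped with unsprayed CON mites at 52.6 to 80.8 CPM, and FORM stood at 29.3 to 39.2 CPM. The study names it as the only gene that differed between FORM and CON.

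Of 13 cuticle and matrix genes 2 were higher with DEF and 4 with DEM, and of the 8 listed for PBO or CsA alone 1 was called, higher with DEF. None of the 7 genes described as cuticle, cuticular or peritrophin proteins was called, and their log2 FC ran from -0.02 to 0.44. The 4 members higher with DEM were chitinase, 2 collagens and tenectin. Chitinase (tetur23g02160), which degrades chitin, read 2.26, 2.09, 4.51 and 4.58 CPM with DEF, 8.56, 11.7, 10.4 and 8.89 CPM with DEM and 5.06, 4.50, 5.46 and 5.03 CPM with FORM (log2 FC -1.57, SE 0.25, edgeR adjusted p = 1.07e-04). Collagen alpha-1 (tetur15g00790), a fibre protein, read 1.25, 1.01, 1.83 and 2.26 CPM with DEF and 4.31, 5.20, 5.89 and 5.85 CPM with DEM (log2 FC -1.75, SE 0.33, edgeR adjusted p = 5.13e-04). Tenectin (tetur02g08240) and a fibrillar collagen precursor (tetur28g00630) had log2 FC of -1.51 and -1.16. On the DEF side stood spondin-1 (tetur05g06950, log2 FC 1.00), whose groups overlapped through DEM replicate 1 (1.32 without it), and dopa decarboxylase (tetur22g00750, log2 FC 0.59), which supplies dopamine for cuticle tanning. The latter lay just over the FC threshold and fell below it without DEF replicate 1 or DEM replicate 2, 3 or 4 (log2 FC 0.53 to 0.55), and without DEM replicate 1 its log2 FC was 0.76.

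Of 6 germline and yolk genes 3 were higher with DEM and 2 with DEF, and all 6 had been listed for DEF. RNA came from whole females with their ovaries and eggs, so fewer cells of a type and less RNA per cell cannot be told apart. Vasa (tetur10g01980), an RNA helicase of germ cells, read 60.9, 60.7, 68.7 and 63.5 CPM with DEF, 139, 142, 129 and 117 CPM with DEM and 115, 112, 113 and 108 CPM with FORM (log2 FC -1.06, SE 0.08, edgeR adjusted p = 1.06e-09). The other vasa gene (tetur10g01960), close to it on the scaffold, had a log2 FC of -0.91, and reads of the copies may not be separable. A Cutoff-like gene (tetur21g03230), whose Drosophila counterpart serves piRNA transcription in the ovary, read 7.98, 8.5, 9.73 and 7.48 CPM with DEF and 19.1, 23.4, 23.7 and 22.8 CPM with DEM (log2 FC -1.40, SE 0.14, edgeR adjusted p = 1.26e-07). In these 3 genes every DEF library lay below every FORM library, by log2 FC of -0.82, -0.76 and -1.13, and none was called between DEM and FORM.

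The 2 members higher with DEF encode vitellogenins. The vitellogenin fused with superoxide dismutase (tetur07g05480) read 1414, 1184, 1089.8 and 1473 CPM with DEF and 1014, 666, 751 and 746 CPM with DEM (log2 FC 0.70, SE 0.15, edgeR adjusted p = 0.00128). Vitellogenin (tetur20g01230), the yolk precursor, read 233, 140.0, 219.5 and 261 CPM with DEF and 185, 112, 129 and 118 CPM with DEM, with overlapping groups (log2 FC 0.65, SE 0.18, edgeR adjusted p = 0.0109). It fell below the FC threshold without DEF replicate 4 (log2 FC 0.53) or DEM replicate 2 (0.57). DEM replicate 1 was the highest DEM library in both genes, and without it their log2 FC was 0.85 and 0.85. The zygote-specific homologue tetur01g11850 (log2 FC -0.48) was not called, although without DEM replicate 1 the germline and yolk list had 4 members higher with DEM in place of 3.

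Among neuropeptide and hormone genes 4 of 10 were higher with DEM and 1 with DEF, and the 1 listed for PBO alone was not called. The highest log2 FC of the list, 1.98, was on the DEF side in a member that was not called. The insulin-like gene tetur04g08550 read 0.953, 1.21, 1.48 and 1.2 CPM with DEF and 2.42, 1.98, 2.18 and 2.53 CPM with DEM, with FORM overlapping DEM at 2.37 to 2.72 CPM (log2 FC -0.92, SE 0.19, edgeR adjusted p = 0.00110). The cystine-knot cytokine tetur01g14780 had the opposite reference pattern, at 4.47 to 5.92 CPM with DEF, 4.31 to 6.29 CPM with FORM and 9.28 to 12 CPM with DEM (log2 FC -1.15, SE 0.21, edgeR adjusted p = 3.66e-04). Proprotein convertase (tetur07g00820), which trims peptide hormones from their precursors, and a neuropeptide precursor (tetur10g02210) had log2 FC of -0.62 and -0.69. The DEF-higher member was myostatin (tetur05g04360, log2 FC 0.91, and 1.07 without DEM replicate 1), a growth factor of the TGF-beta family.

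Of 26 regulators of chromatin and transcription 23 were higher with DEM and none with DEF, with a median log2 FC of -0.82 against 0.0031 over all genes tested. Of the 8 listed for PBO alone 6 were higher with DEM, where 28.8% of all genes listed for PBO or CsA alone and 5.32% of all genes tested were. The list was picked by these words from genes that responded to a synergist. A homolog of the human gene myeloid/lymphoid or mixed-lineage leukemia 2 (tetur17g01650), a histone H3 methyltransferase, read 4.11, 3.51, 5.43 and 6.28 CPM with DEF, 15.9, 14.3, 14.8 and 11.1 CPM with DEM and 4.60, 5.42, 5.18 and 7.26 CPM with FORM (log2 FC -1.54, SE 0.33, edgeR adjusted p = 0.00204). Nejire (tetur07g03900), the counterpart of the histone acetyltransferase CBP, read 30.7, 28.9, 46.4 and 47.1 CPM with DEF and 90.2, 80.2, 77.4 and 64.8 CPM with DEM (log2 FC -1.03, SE 0.23, edgeR adjusted p = 0.00261). In both genes DEM lay above DEF and FORM, while DEF and FORM overlapped.

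Other members were spread over several machineries. The forkhead factor FoxN1/4a (tetur21g02690) had a log2 FC of -1.53, a zinc finger gene (tetur03g04660) -1.2 and the nucleolar protein p130 (tetur03g06070) -1.18. Subunit Med1 of the Mediator complex (tetur26g02090), which links activators to RNA polymerase II, had -0.77, subunit 3 of the initiation factor TFIID (tetur08g00050) -0.82 and remodeling and spacing factor 1 (tetur04g06810) -0.81. The RNA-binding genes tetur28g00340 (-1.15) and tetur06g05570 (-0.96) differed from the rest in their reference, being lower with DEF than with FORM by log2 FC of -0.93 and -0.70. The 3 members not called were the Paf1 complex subunit CTR9 (tetur06g05270, -0.57), the condensin subunit SMC2 (tetur25g00820, -0.42) and RNA-binding protein 40 (tetur07g00310, 0.57). Leaving out each library in turn gave 22 to 24 members higher with DEM, while edgeR's test against an FC of 1.5 left 3.

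The 10 transcription factors of the study's own table were all higher with DEM. They had been picked in these libraries for moving in opposite directions with the synergists, so their levels are a description. Kr-2 (tetur08g05590), an ortholog of a Drosophila factor, stood at 40.4 to 48.9 CPM with DEF, 55.4 to 60.3 CPM with FORM and 76.3 to 80.2 CPM with DEM. The gene tetur06g03930, which has an alpha-beta plait domain, stood at 37.8 to 47.8, 64.9 to 80.8 and 86.5 to 102 CPM in the same order of groups. The other 8 had log2 FC from -0.84 to -0.65.

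**Figure D4:**
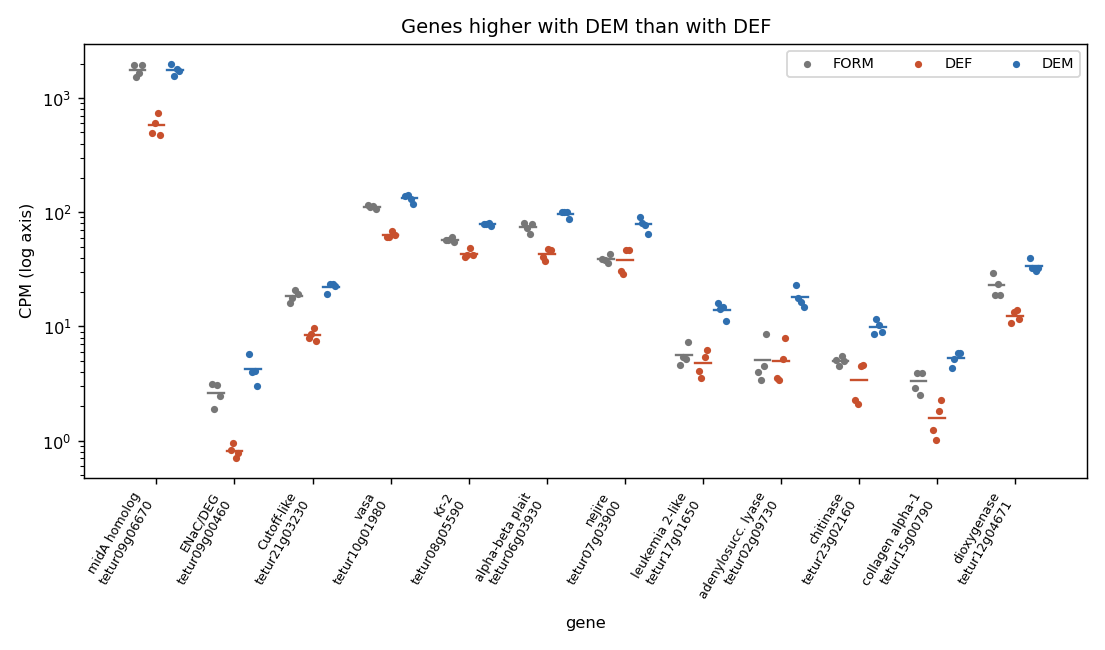
Level in CPM (vertical log axis) of 12 genes higher with DEM, in each FORM (grey), DEF (orange) and DEM (blue) library. Points are libraries and bars the mean of 4. The midA homolog stands at 475 to 740.3 CPM with DEF and 1554 to 2001 CPM with DEM, and DEM lies near FORM in some genes and above it in others.

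The DEM-higher genes with the largest differences outside these lists were mostly without a description and below 3 CPM. A described gene among them was the midA homolog (tetur09g06670), a mitochondrial protein needed for the assembly of respiratory complex I in Dictyostelium and human cells. It read 494, 600.5, 740.3 and 475 CPM with DEF, 2001, 1554, 1782 and 1725 CPM with DEM and 1935, 1520.3, 1671 and 1936 CPM with FORM (log2 FC -1.61, SE 0.18, edgeR adjusted p = 2.99e-06). DEF lay below DEM and FORM in every library, and DEM and FORM overlapped. A sodium channel of the ENaC/degenerin family (tetur09g00460) read 0.834, 0.945, 0.705 and 0.776 CPM with DEF and 5.68, 4.02, 4.09 and 3.04 CPM with DEM (log2 FC -2.35, SE 0.29, edgeR adjusted p = 3.22e-06). Adenylosuccinate lyase (tetur02g09730), which acts in purine synthesis, read 3.51, 3.37, 5.15 and 7.90 CPM with DEF, 3.97, 3.40, 4.50 and 8.59 CPM with FORM and 23.0, 17.7, 16.2 and 14.8 CPM with DEM (log2 FC -1.85, SE 0.48, edgeR adjusted p = 0.00776). For this gene DEF and FORM overlapped and DEM lay above both. A type 11 methyltransferase (tetur01g03900), a gustatory receptor (tetur01g01400) and a gene for regulating synaptic membrane exocytosis (tetur13g02950) had log2 FC of -1.96, -1.54 and -1.5. A gene with a pleckstrin homology domain (tetur03g08940) had -1.46. Without DEM replicate 1 the methyltransferase had -1.66.

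The genes named by size alone on the DEM side, all undescribed, were tetur18g02910 (log2 FC -2.28), tetur25g00940 (-2.15), tetur28g01230 (-1.98), tetur25g00950 (-1.84), tetur23g01350 (-1.81), tetur23g00600 (-1.81) and tetur37g00180 (-1.80). On the DEF side they were tetur21g03190 (3.02), the hypothetical proteins tetur11g05010 (2.53), tetur11g05020 (2.49) and tetur11g90914 (2.49), tetur33g01710 (2.40) and tetur30g02060 (2.34). Without DEM replicate 1 tetur11g90914 had 3.06 and tetur30g02060 had 1.98. The neighbours tetur11g05010 and tetur11g05020 moved together, at 21.2, 22.5, 15.2 and 14.9 and 32.8, 39.1, 24.7 and 24.8 CPM over the DEF libraries and 3.20, 2.70, 2.34 and 4.44 and 4.51, 4.94, 5.29 and 6.80 CPM over the DEM libraries. The alpha/beta hydrolase tetur10g00760, named among described genes, had a log2 FC of 2.06, and of 3.49 without DEM replicate 1. Its call was lost without DEF replicate 1 or DEM replicate 2, 3 or 4 (edgeR adjusted p = 0.0564 to 0.0616), and that of tetur33g01710 without DEF replicate 1 or 4 or DEM replicate 2 or 3 (edgeR adjusted p = 0.0562 to 0.0908).

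Genes called in the same direction lay side by side in 20 places, counting runs of at least 3 consecutive tested genes in the order of their IDs on a scaffold. Of these runs 14 were higher with DEM and 6 with DEF, with 68 genes in all. Of the 1012 genes called, 678 were higher with DEM and 334 with DEF. Whether this is more runs than an unordered set of calls would give was not tested. Those on the DEF side included the UGT run of scaffold 22, the CYP392D run of scaffold 3, the reductase run of scaffold 6 and a run with 2 sialins on scaffold 8. Those on the DEM side held mostly undescribed genes, with 4 members from tetur25g00930 to tetur25g00960 and 3 from the Cutoff-like gene tetur21g03230 to tetur21g03260. Reads of neighbouring family members can be misplaced or left out of the counts, so members of a run are not taken as independent.

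PBO, which inhibits P450s, and CsA, which binds cyclophilin, offer a contrast with no library in common with DEF or DEM. Between PBO and CsA 1232 genes were called, 9.67% of those tested, 313 higher with PBO and 919 higher with CsA. Of the 334 genes higher with DEF, 307 (91.9%) were higher with PBO than with CsA, with a median log2 FC of PBO over CsA of 0.52, and 124 were called so while 2 were called the other way. Of the 678 genes higher with DEM, 658 were higher with CsA, with a median of -0.80, and 443 were called so while 2 were called the other way. Over all genes tested 52.4% were higher with PBO. Across the 12736 genes the log2 FC of DEF over DEM and that of PBO over CsA were related with Pearson's r = 0.701 and Spearman's rho = 0.692, and with CsA replicate 4 left out r was 0.695. The genes are not independent replicates, and the contrasts share the filter, the scaling and the estimate of spread.

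**Figure D5:**
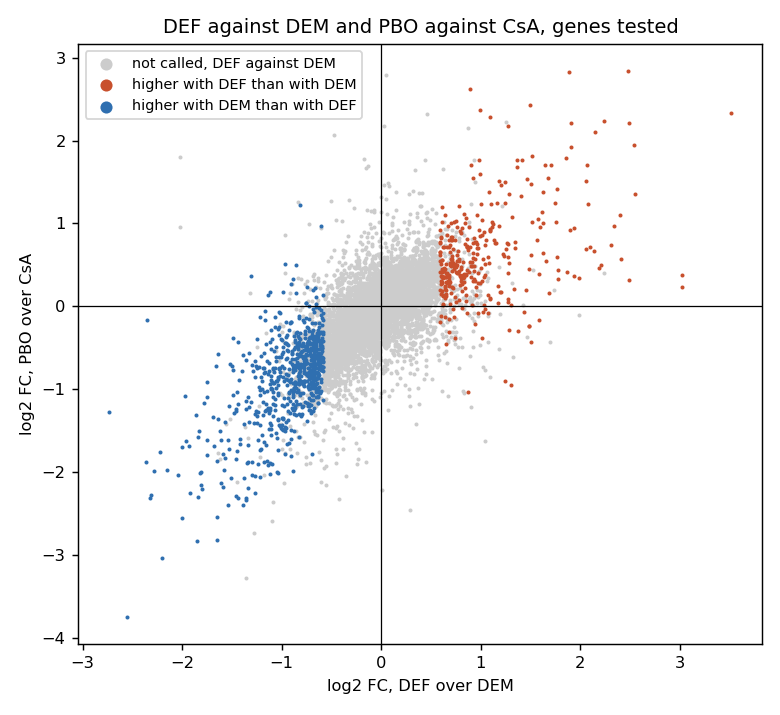
Log2 FC of PBO over CsA (vertical axis) against log2 FC of DEF over DEM (horizontal axis) for the 12736 genes tested. Genes called higher with DEF (orange) lie mostly in the upper right, 307 of 334 with PBO above CsA, and genes called higher with DEM (blue) mostly in the lower left, 658 of 678 with CsA above PBO.

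Named genes followed this order with exceptions. CYP392A11 (tetur03g00970) had a log2 FC of PBO over CsA of 2.10, UGT63 (tetur22g00360) of 2.84, TuGSTd14 (tetur29g00220) of 1.5, the midA homolog (tetur09g06670) of -1.62 and the leukemia 2 homolog (tetur17g01650) of -2.40. The study had listed each of these genes as responding to PBO. They were thus picked on libraries of this contrast, and their values are no independent evidence of the order. Among the exceptions the adenylate cyclase tetur11g05110, higher with DEF, had -0.90 (edgeR adjusted p = 0.00151), and the E-set gene tetur14g02060, higher with DEM, had 0.97 (edgeR adjusted p = 1.28e-06). The sodium channel gene tetur09g00460, which had the lowest log2 FC of DEF over DEM among the named genes, had -0.16 (edgeR adjusted p = 0.702).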

How the data were processed

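The submitters' processing notes and the study's methods name FastQC 0.11.4 for quality checks, STAR 2.5.0a for alignment, SAMtools 0.1.19 for sorting and HTSeq 0.6.0 for strand-specific counting on annotated exons. The genome build is not given in the sources used here. The deposited values are raw counts made by the authors for 19087 genes in 24 libraries, with 4 biological replicates of each treatment and no other columns. HTSeq leaves out reads that fit several genes, so near-identical copies can be undercounted.

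Analysis used R 4.3.3 and the packages edgeR 4.0.16, DESeq2 1.42.0 and limma 3.58.1. The filterByExpr function on the 6 groups kept 12736 genes, libraries were scaled by TMM, and all 24 libraries entered a robust quasi-likelihood fit of 6 group means (biological coefficient of variation 9.80%). DEF minus DEM was tested within it, and a call needed a difference of 1.5-fold or more and an adjusted p (Benjamini-Hochberg) below 0.05. Alternatives were DESeq2, limma-voom, another scaling, other filters and thresholds, fits of the DEF and DEM libraries only, a replicate block and each library left out in turn.

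The comparison, the gene lists and the tests were chosen with earlier results of these data known. Lists rest on words in the descriptions of the study's supplementary tables, from which only gene IDs and descriptions were taken. Named genes are the 10 at each end of the log2 FC among genes called with groups that do not overlap and at least 1 CPM in the higher group, the 15 on either side under the same conditions among described table genes, all called members of the P450, UGT, GST, CCE, ABC transporter and dioxygenase lists, 2 members per direction of every other list, and the CncC, calcineurin, vitellogenin and superoxide dismutase genes. Other list members were named after their values were seen. Sequences and coordinates are not reported here.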

Additional observations from a re-analysis of the deposited data

Results flagged for a closer look

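A library was singled out in a group of 4 when its gap to the nearest of the others took more of the group's range than Dixon's 95% critical value for 4 samples, which chance gives in about 1 of 20 groups. Of 208 pairs of named gene and group 19 met this (9.13%). In 9 of them DEM replicate 1 was the library concerned, and in all 9 it lay above the other 3 DEM libraries in a gene called higher with DEF. For UGT11 (tetur02g09850) it read 204 CPM against 135 to 146 CPM, for UGT18 (tetur04g07770) 44.7 CPM against 32.8 to 33.9 CPM and for UGT66 (tetur22g00440) 19.7 CPM against 14.0 to 14.8 CPM. For the CCE tetur11g05770 it read 17.4 CPM, for the alpha/beta hydrolase tetur10g00760 2.74 CPM and for the cathepsin B tetur01g05230 1.05 CPM. For myostatin (tetur05g04360) it read 31.0 CPM, for spondin-1 (tetur05g06950) 6.47 CPM and for dopa decarboxylase (tetur22g00750) 68.2 CPM.

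DEF replicate 1 was the library concerned in 5 genes. It was the highest DEF library for UGT11 (tetur02g09850), at 372 CPM, and for CYP392D6 (tetur03g05030), at 328 CPM, and the lowest for the short-chain dehydrogenase tetur06g04960, at 4.23 CPM, the sialin tetur08g06370, at 3.51 CPM, and the adenylate cyclase tetur30g01490, at 5.18 CPM. DEF replicate 4 was highest for CYP392D5p (tetur03g05020), at 41.5 CPM, and for CYP385C3v2 (tetur46g00170), at 11.5 CPM. DEF replicate 3 was highest for CYP385C4v2 (tetur46g00150), at 21.6 CPM against 20.2 to 20.5 CPM. DEM replicate 4 was lowest for tetur06g03930, at 86.5 CPM, and highest for the UGT tetur184g00040, at 12.8 CPM.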

How the results depend on the processing

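Counts of genes called depended most on how the FC entered the test. Tested against an FC of 1.5, only 96 genes were called, 52 higher with DEF and 44 higher with DEM, and the adjusted p alone called 3244, of which 1411 were higher with DEF and 1833 higher with DEM. The test against an FC of 1.5 left 10 of 17 P450s, 8 of 13 UGTs, 5 of 7 dehydrogenases and reductases, 1 of 4 CCEs and 0 of 9 MFS genes higher with DEF. On the DEM side it left 3 of 23 chromatin and transcription genes and 2 of the 10 transcription factors of the study's table. DESeq2 called 968, limma-voom 1063, a minimum of 10 counts in every library 776 and the DEF and DEM libraries alone 951. Leaving out each library in turn gave 796 to 1102 genes, 260 to 480 higher with DEF and 521 to 796 higher with DEM, and 601 of the 1012 genes were called every time. Of the 99 named genes called, 91 stayed called under each alternative that gave the gene a value, the test against an FC of 1.5 apart, which 48 of the 99 failed. The minimum of 10 counts in every library left 23 of the 99 without a value, and no named gene turned its direction past the threshold. With CON in place of FORM, 70.4% of the DEF-higher genes had the reference between the pair, against 85.3% with FORM. PBO exceeded CsA in 52.4% of all tested genes, against 91.9% of the DEF-higher and 2.95% of the DEM-higher genes, and leaving out CsA replicate 4 gave 89.5% and 2.65%.

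Libraries of the same replicate number were not treated as pairs in the main fit. The correlations of the deviations of same-numbered DEF and DEM libraries were 0.166, 0.212, 0.137 and -0.131. DEF replicates 1, 2 and 3 correlated best with the DEM library of their own number, and DEF replicate 4 with DEM replicate 1 (0.241). Whether the numbers mark pairs cannot be decided from these values. The replicate block gave 1035 genes, 350 higher with DEF and 685 higher with DEM. In the DEF and DEM libraries alone, an alternative chosen after seeing the data, the block gave 965, and a spread estimated without robustness, chosen likewise, gave 1023. Depth limits the genes near 1 CPM, where a library holds few reads of a gene.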

Other observations

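Among genes with a mean above 1000 CPM over the DEF and DEM groups, a limit chosen after the values were seen, 11 were called, 7 higher with DEM and 4 higher with DEF. Over all genes tested 5.32% were higher with DEM and 2.62% higher with DEF. How many tested genes exceed the limit was not counted, so the 11 are a description and not a share. Of the 7, 4 have no description in the sources used here. The gene tetur18g03050 read 8717, 10058, 10118 and 9144 CPM with DEF, 14199.9, 15207, 15908 and 14661 CPM with DEM and 14636, 13933, 13729 and 13073 CPM with FORM (log2 FC -0.66, SE 0.09, edgeR adjusted p = 1.31e-05). DEF lay below DEM and FORM in every library. The gene tetur25g00520, a hypothetical protein, was also lowest with DEF, at 655 to 874 CPM with DEF, 1145 to 1650.3 CPM with DEM and 1433 to 1774 CPM with FORM (log2 FC -0.89, SE 0.13, edgeR adjusted p = 3.46e-05). The gene tetur03g09300 read 26946, 28208, 32179 and 30315 CPM with DEF and 65462, 39273, 40993 and 39633 CPM with DEM (log2 FC -0.66, SE 0.17, edgeR adjusted p = 0.00611). It stood far above the other DEM libraries in DEM replicate 1, and without that library its log2 FC was -0.43 (edgeR adjusted p = 0.0445), under the FC threshold. In tetur12g01560, also undescribed and higher with DEF, the same library was far above the rest of its group and overlapped with DEF, at 1391, 575, 740.0 and 718 CPM with DEM against 1396, 1223, 1079 and 1439.8 CPM with DEF (log2 FC 0.59, SE 0.21, edgeR adjusted p = 0.0490). Without DEM replicate 1 its log2 FC was 0.93 (edgeR adjusted p = 4.65e-04), and the call was also kept without DEF replicate 3. Leaving out any 1 of the other 6 libraries ended it (edgeR adjusted p = 0.0781 to 0.148).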
